A study of Homo sapiens with 4 samples.

Results

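The integrated stress response genes described here are *ATF4*, *ATF5*, *DDIT3*, *DDIT4*, *ASNS*, *TRIB3*, *CHAC1*, *SESN2*, *PSAT1* and *PHGDH*. They were taken as the rows of the deposited table that carry one of these 10 gene names. Of the 10 genes, 8 have a row among the 10147 genes in the table. *ATF5* and *DDIT3* have none under their symbols or older names and were not analysed here. The authors excluded overlapping genes from their set. The RefSeq spans of *ATF5* and *DDIT3* each overlap 3 other entries (*IL4I1*, *NUP62* and *MIR4751*, and *MARS1*, *LOC128125814* and *MIR616*), but the span of *ASNS*, which has a row, also overlaps 3, and the reason for the missing rows was not tested.

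The data are transient transcriptome sequencing (TT-seq), which isolates and sequences the RNA that cells label with 4-thiouridine (4sU) in a brief pulse and so reads out synthesis. The cells were K562, a human chronic myelogenous leukemia line, genome edited so that IWS1 carries an N-terminal dTAG, and both groups share this edit. IWS1 is a protein bound to elongating RNA polymerase II (Pol II), and dTAG7 is a ligand that leads to degradation of the tagged protein. The control was treated with the solvent DMSO and dIWS1 with 500 nM dTAG7, each for 1 h, with a 5 min pulse of 500 µM 4sU in the same number of cells. The labels give 2 replicates per group, which the authors describe as biological. The comparison asks whether the synthesis of these RNAs changes once IWS1 is depleted.

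In the integrated stress response, kinases that sense amino acid shortage, unfolded proteins, heme shortage or double-stranded RNA phosphorylate the translation initiation factor eIF2. Overall translation then falls, while the transcription factor ATF4 is made from an mRNA that is translated better in this state. ATF4 pairs with other basic leucine zipper proteins and turns on genes for amino acid synthesis and transport, for redox balance and for the control of cell growth. Serine and asparagine made by enzymes of this pathway feed protein and nucleotide synthesis in proliferating cells.

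ATF4 with a C/EBP partner is known to bind a composite element whose core can be written TGATGNAA. The sequences with these letters in front of the start sites of the 8 genes are shown, as exact matches to this core. Elements with other letters or farther away were not searched. In RefSeq promoter windows of GRCh38.p14, which run from 250 bases before to 50 bases after a start site, 2 of the 8 genes have a match on either strand, *ASNS* and *CHAC1*. The *ASNS* match lies from 68 to 61 bases upstream, in the 60 bases at chr7:97872443-97872502 on the minus strand. The *CHAC1* match lies from 209 to 202 bases upstream and reads the core on the opposite strand, in the 60 bases at chr15:40953236-40953295 on the plus strand. The letters are written 5′ to 3′ along the strand of the gene, and capitals mark the match.
ASNS: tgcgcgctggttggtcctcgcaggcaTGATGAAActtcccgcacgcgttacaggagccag
CHAC1: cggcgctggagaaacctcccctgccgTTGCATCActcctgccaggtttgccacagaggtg
The same letters occur in 1270 of all 35116 promoter windows (3.62%), so a match is a description of the sequence and not evidence of binding. This is a share of windows, of which the 8 genes have 12. By gene, 185 of 7218 genes with a mean of at least 100 and a window have a match.

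The whole reads behind each gene's deposited mean could be worked out from the mean itself. They fall into 3 columns, of which 2 differ from each other and belong to dIWS1, and 1 belongs to the control and counts 2 times in every mean. That control is treated as a single sample here, so only the dIWS1 columns show how far replicates vary. Which replicate each dIWS1 column holds is not given, and they are referred to as column 1 and column 2. Genes held 29830672 reads in the control, 20682313 in column 1 and 20885911 in column 2. For each of the 8 genes a search of all splits found a single set of whole reads. With spike-in scaling, which keeps changes shared by all genes, the median gene lay at a log2 ratio to the control of −0.47 in column 1 and −0.36 in column 2 (8899 genes whose mean normalized count was 100 or more). The tagged gene *IWS1* itself had 3684, 2334 and 2427 reads in the control, column 1 and column 2, which does not measure the depletion, because dTAG7 acts on the protein. Of 13 erythroid and K562 markers 11 have a row, and 7 of these were called lower with spike-in scaling (63.6%, against 64.7% of all genes) and 0 higher. Relative to the median gene, *ABL1* was called lower (−0.36) and *NFE2* higher (0.34), and no other marker was called. On that scale 5.25% of all genes were called lower and 3.22% higher. With spike-in scaling *NFE2* was at −0.08 (adjusted p = 0.648, limma voom). Of 10 genes listed as markers of other cell types only *PTPRC* and *KRT8* have a row, with 15352 and 2777 control reads. A missing row need not mean that a gene is silent, since the authors excluded overlapping genes. *BCR* and *ZFPM1* of the K562 list also lack a row. Why *PTPRC* and *KRT8* have reads was not tested.

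Synthesis of all 8 stress response RNAs was lower after IWS1 depletion when the libraries were scaled by spike-ins, with dIWS1 levels from 61.5% of the control for *CHAC1* to 76.4% for *SESN2*. All 8 genes were called lower and 0 higher (limma voom, Benjamini-Hochberg adjusted p under 0.05 over 10135 genes). This share is read against the background, since 64.7% of all genes were called lower and 0.118% higher in the same fit. In bulk libraries, fewer cells that transcribe a gene and less new RNA per cell cannot be told apart. Both dIWS1 columns lay below the control for 8 of the 8 genes, as they did for 92.1% of all genes. The median log2 fold change (dIWS1/control) of the 8 genes was −0.58, and that of all genes tested was −0.43.

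The regulator *ATF4* (chromosome 22, 39520559 to 39522686, plus strand, RefSeq) is among the shortest of the genes, with a canonical transcript of 2122 bp and 3 exons in GENCODE release 44. It had 1661 reads in the control, 1032 in column 1 and 1029 in column 2. After spike-in scaling these were 1645, 1039 and 1119 normalized counts, so both dIWS1 values lie below the control. On the log2 scale, the ratio to the control was −0.66 in column 1 (95% exact counting interval −0.78 to −0.55) and −0.56 in column 2 (−0.67 to −0.44). Intervals of this kind cover counting error only. The fitted log2 fold change was −0.61 (standard error 0.14, adjusted p = 6.94e-05, limma voom). By name there are 4 pseudogenes of *ATF4*, 5 of *ASNS* and 4 of *PSAT1* in RefSeq, none with a row of its own. The authors kept unique alignments, and reads shared with these copies remain uncertain for all 3 genes.

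Amino acid synthesis is represented by *ASNS*, *PHGDH* and *PSAT1*. *ASNS*, the enzyme that makes asparagine from aspartate, lies on the minus strand of chromosome 7 with a canonical transcript from 97851677 to 97872408 and 13 exons. *ASNS* had 4320 reads in the control, 2781 in column 1 and 2769 in column 2. Its RefSeq span of 76765 bp is longer than the canonical transcript of 20732 bp and overlaps 3 other RefSeq entries, *CZ1P-ASNS*, *SNRPCP9* and *RPS3AP29*, so the counted region is uncertain. Its log2 ratios were −0.61 and −0.51 in columns 1 and 2, and the fit gave −0.56 (standard error 0.15, adjusted p = 0.00065, limma voom).

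*PHGDH*, which catalyses the first step of serine synthesis from a glycolytic intermediate, lies on the plus strand of chromosome 1 from 119711934 to 119744215 and has 12 exons. *PHGDH* had 5229 reads in the control, 3506 in column 1 and 3646 in column 2, the highest reads of the 8 genes in each column. *PSAT1*, the enzyme of the next step, lies on the plus strand of chromosome 9 from 78297125 to 78330093 with 9 exons. *PSAT1* had 2608 reads in the control, 1604 in column 1 and 1595 in column 2. The levels of *PHGDH* were 68.2% and 76.6% of the control in columns 1 and 2, and those of *PSAT1* were 62.5% and 67.2%. In both columns *PSAT1* was therefore lower relative to its control than *PHGDH*. The fit gave log2 fold changes of −0.47 for *PHGDH* (standard error 0.15, adjusted p = 0.0042) and −0.63 for *PSAT1* (standard error 0.15, adjusted p = 9.34e-05, limma voom for both).

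Stress outputs that act on growth signalling are *DDIT4*, *SESN2* and *TRIB3*. *DDIT4* (also called REDD1), an inhibitor of the growth kinase complex mTORC1 that acts through the TSC complex, lies on the plus strand of chromosome 10 from 72273924 to 72276036 with 3 exons. *DDIT4* had 1574 reads in the control, 1038 in column 1 and 1083 in column 2, and a fitted log2 fold change of −0.49 (standard error 0.14, adjusted p = 0.00126, limma voom). *SESN2*, a leucine-binding protein that also restrains mTORC1, lies on the plus strand of chromosome 1 from 28259518 to 28282491 with 10 exons. *SESN2* had 4731 reads in the control, 3343 in column 1 and 3487 in column 2. It kept the highest share of the control level among the 8 genes, 71.8% in column 1 and 80.9% in column 2. Its fitted log2 fold change was −0.39 (standard error 0.15, adjusted p = 0.0169, limma voom).

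*TRIB3*, a pseudokinase that is induced by ATF4 and known to restrain it in turn, lies on the plus strand of chromosome 20 from 380760 to 397559 with 4 exons. *TRIB3* had 2769 reads in the control, 1593 in column 1 and 1698 in column 2. Of the 8 genes it differed most between the dIWS1 columns, with log2 ratios of −0.77 (counting interval −0.86 to −0.68) and −0.57 (−0.66 to −0.48). The fit gave −0.67 (standard error 0.15, adjusted p = 2.99e-05, limma voom).

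*CHAC1*, an enzyme that breaks down glutathione, has the fewest reads of the 8 genes. It lies on the plus strand of chromosome 15 from 40953471 to 40956512 with 3 exons. *CHAC1* had 385 reads in the control, 225 in column 1 and 223 in column 2. Its counting intervals were the widest of the 8, from −0.995 to −0.51 in column 1 and from −0.90 to −0.41 in column 2, around log2 ratios of −0.75 and −0.65. Its fitted log2 fold change of −0.70 was the lowest of the 8 (standard error 0.14, adjusted p = 3.8e-06, limma voom).

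**Figure D1:**
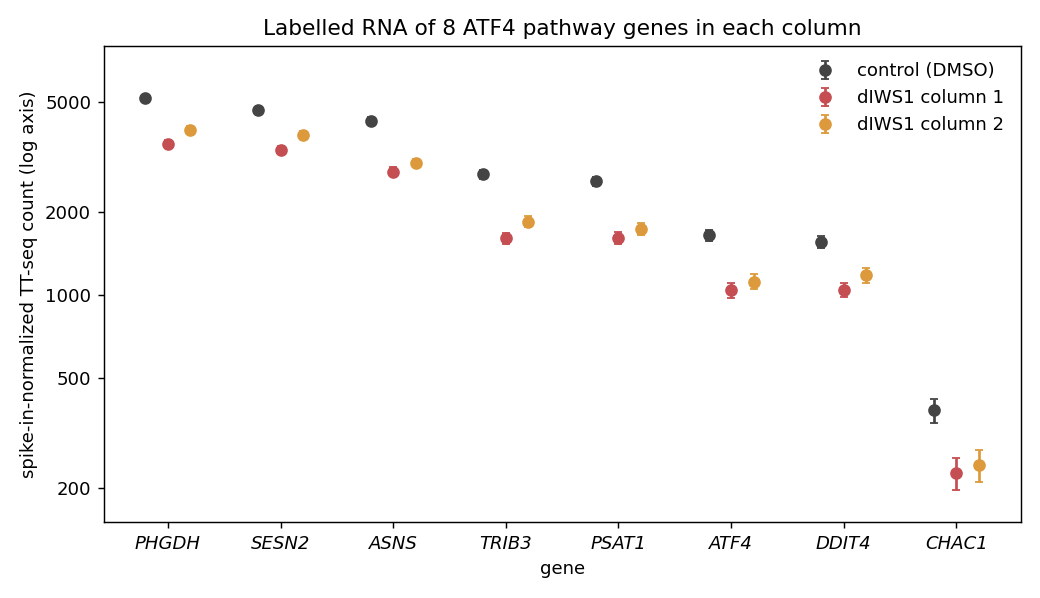
Spike-in-normalized TT-seq counts (vertical log axis) of the 8 genes in the control, dIWS1 column 1 and dIWS1 column 2, ordered by the control level, with 95% intervals for counting error (normal approximation) where wider than the symbol. Both dIWS1 points lie below the control for each gene, from *PHGDH* at 5179 control counts to *CHAC1* at 381.

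Levels between genes were compared per kb of the canonical transcript span, since TT-seq reads cover introns as well as exons. In the control, *ATF4* had 775 normalized counts per kb and *DDIT4* 738, above *ASNS* at 206 and *SESN2* at 204. *TRIB3* had 163, *PHGDH* 160, *CHAC1* 125 and *PSAT1* 78.4 normalized counts per kb. The short *CHAC1* thus ranked above *PSAT1* per kb, although it had the fewest reads. The place of *ASNS* depends on the counted region, since over its RefSeq span of 76765 bp it would have 55.7 normalized counts per kb, the lowest of the 8 genes. For the canonical span, per kb, 99.3% of all genes with a mean of at least 100 and a length lay below *ATF4* and 70.1% below *PSAT1*. In dIWS1 *ATF4* had 490 and 527 normalized counts per kb in columns 1 and 2, and *DDIT4* had 495 and 557, so neither gene was the higher one in all 3 columns.

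Relative to the median gene, the 8 genes lay mostly just below 0, and none passed the threshold. The call depends on the settings. When genes with a mean under 100 were left out, 3 of the 8 (*TRIB3*, *PSAT1* and *ATF4*) were called lower, and 5 with the control entered 2 times. The shares of all genes called under those settings are not given here, so these counts have no background. Scaling to the median gene sets the median log2 ratio of all genes to 0 in each dIWS1 column. It asks whether a gene changed more or less than a typical gene. Of the 8 genes 0 were called lower and 0 higher (limma voom, adjusted p under 0.05), against 5.25% of all genes called lower and 3.22% called higher. Without adjustment, 5 of the 8 had a p under 0.05, all lower, against 18.2% of all genes tested. Both dIWS1 columns lay below the median gene for 7 of the 8 genes, as for 43.4% of all genes. The median of the 8 genes was −0.17 against −0.01 for all genes tested.

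The lowest value on this scale was that of *CHAC1*, at a log2 fold change of −0.29 (standard error 0.10, adjusted p = 0.114, limma voom). Its values in columns 1 and 2 were −0.28 and −0.29. *TRIB3* followed at −0.26 (standard error 0.07, adjusted p = 0.0719, limma voom), with −0.31 in column 1 and −0.21 in column 2. *PSAT1* was at −0.21 in both columns and in the fit (adjusted p = 0.0729, limma voom). *ATF4* was at −0.19 and −0.20 in the columns and at −0.20 in the fit (standard error 0.06, adjusted p = 0.0929, limma voom). *ASNS* was at −0.14 and −0.15 in the columns and at −0.15 in the fit (adjusted p = 0.129, limma voom). These 5 genes lay below the median gene by amounts that were nearly equal in both columns, *TRIB3* excepted. Both columns are set against the same control reads, so an error in a gene's control reads would move both values alike.

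*DDIT4*, *PHGDH* and *SESN2* lay closer to the median gene. *DDIT4* was at −0.11 and −0.04 in columns 1 and 2 (fit −0.08, adjusted p = 0.432), *PHGDH* at −0.08 and −0.03 (fit −0.06, adjusted p = 0.52) and *SESN2* at −0.01 and 0.05 (fit 0.02, adjusted p = 0.805, limma voom for each). The sign for *SESN2* therefore differed between the columns. For *SESN2* the 95% interval of the fit ran from −0.13 to 0.18, and for *CHAC1* from −0.54 to −0.03. Of all genes with a mean of at least 100, 11.97% had a lower relative value than *CHAC1*, 20.8% a lower one than *ATF4* and 53.7% a lower one than *SESN2*.

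In the order *CHAC1*, *TRIB3*, *PSAT1*, *ATF4*, *ASNS*, *DDIT4*, *PHGDH*, *SESN2*, no neighbours differed by more than the combined standard error of the pair. The widest step, from *PHGDH* to *SESN2*, was −0.08 on the log2 scale (combined standard error 0.08). *CHAC1* and *SESN2*, at the ends of the order, differed by −0.31 (combined standard error 0.11), by −0.27 in column 1 and −0.35 in column 2. This pair was picked for its distance, and the difference is given as a description.

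**Figure D2:**
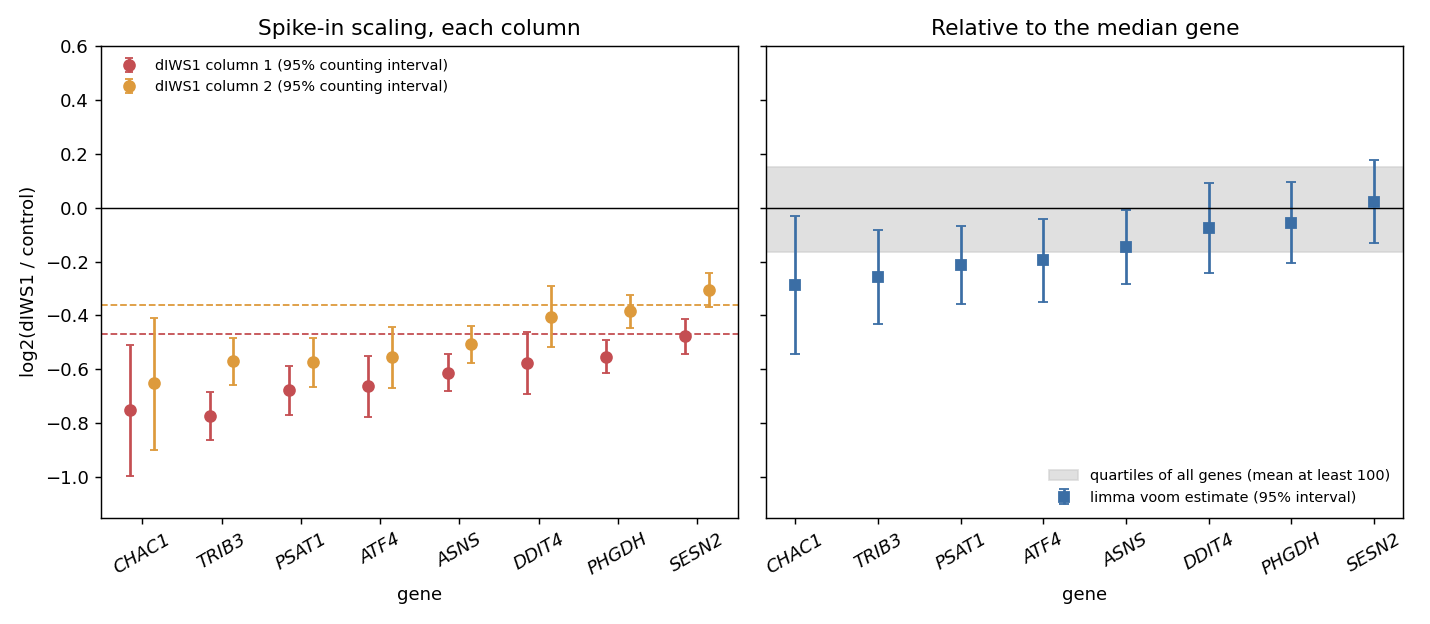
Log2 ratios of dIWS1 over control for the 8 genes. Left, spike-in scaling for each dIWS1 column with 95% exact counting intervals, and dashed lines at the median gene of each column (−0.47 and −0.36). Right, the limma voom estimate relative to the median gene with its 95% interval and a grey band for the quartiles of all genes with a mean of at least 100 (−0.16 to 0.15), within which *ASNS*, *DDIT4*, *PHGDH* and *SESN2* lie.

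The 8 genes were also set against genes of like length, because the median change differed between length classes (quartiles of the canonical span over the genes in the table). *ATF4*, *DDIT4* and *CHAC1* fall in the shortest class, whose median relative log2 fold change was −0.05 (1489 genes with a mean of at least 100). *TRIB3*, *ASNS* and *SESN2* fall in the next class, with a median of 0.03, and *PSAT1* and *PHGDH* in the third, with a median of 0.08. Against the median of its class, *TRIB3* was at −0.29, *PSAT1* at −0.29, *CHAC1* at −0.24, *ASNS* at −0.18, *ATF4* at −0.15 and *PHGDH* at −0.13. *DDIT4* was at −0.03 and *SESN2* at −0.01. By its RefSeq span *ASNS* would fall in the longest class, with a median of −0.08, and lie at −0.07 from it. The distance from the class median was thus widest for *TRIB3* and *PSAT1*, and no test was made of it.

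Changes of genes with and without the promoter letters are set side by side here, as a description. *ASNS* and *CHAC1*, which carry TGATGNAA, were at −0.15 and −0.29 relative to the median gene, and the 6 genes without a match in the window ran from −0.26 to 0.02. Over all genes with a mean of at least 100 and a promoter window, the 185 genes with a match had a median of −0.04 and the 7033 without one a median of 0.0031. Of the genes with a match 7.57% were called lower relative to the median gene, and of those without 5.86%. The shares called higher were 2.16% with a match and 3.58% without. No test was made of these shares.

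Upstream of ATF4, the genes of the eIF2 kinases and their regulators hold the 2 lowest relative values of the 11 lists. Over all genes, 64.7% were called lower with spike-in scaling. Relative to the median gene, 5.25% of all genes were called lower and 3.22% higher. Of 8 genes in this list 7 have a row, and 5 were called lower with spike-in scaling and 0 higher. Relative to the median gene 2 were called lower, *IMPACT* and *OMA1*, and 0 higher. *IMPACT*, a protein that inhibits activation of the kinase GCN2, had 398 reads in the control, 173 in column 1 and 163 in column 2, a relative log2 fold change of −0.75 (adjusted p = 0.0401, limma voom). *OMA1*, the mitochondrial protease that relays mitochondrial stress to the kinase HRI, had 2029, 942 and 876 reads, a relative value of −0.67 (adjusted p = 0.0401, limma voom). The 4 eIF2 kinases are all in the table and none was called on this scale. They are named outside the rule for named genes, after their values were seen. *EIF2AK3* (PERK, the sensor of unfolded proteins) had 1199 reads in the control, 1044 in column 1 and 1149 in column 2 and lay at 0.36 (adjusted p = 0.061). *EIF2AK2* (PKR) lay at 0.23, *EIF2AK1* (HRI) at −0.07 and *EIF2AK4* (GCN2) at −0.09.

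None of the listed eIF2, eIF2B and eIF2 phosphatase genes was called relative to the median gene. On that scale 5.25% of all genes were called lower and 3.22% higher. The lack of calls among so few genes therefore does not set them apart. With spike-in scaling 64.7% of all genes were called lower. Of the eIF2 and eIF2B subunit genes, 7 of 8 have a row, 7 were called lower with spike-in scaling and 0 relative to the median gene, where the values ran from −0.23 for *EIF2B3* to 0.06 for *EIF2B2*. Of the 5 eIF2 phosphatase genes, 4 were called lower with spike-in scaling and 0 relative to the median gene, from *PPP1R15A* (GADD34, itself a stress-induced subunit) at −0.12 to *PPP1CB* at 0.15. Of 14 stress transcription factors and leucine zipper partners of ATF4, 12 have a row, 6 were called lower with spike-in scaling and 0 relative to the median gene. Among those with a mean of at least 100, the relative values ran from −0.09 for *JUND* to 0.16 for *FOXO3*.

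Lists of other amino acid supply genes, several of them known ATF4 targets, are read against the 64.7% of all genes called lower with spike-in scaling and the 5.25% called lower relative to the median gene. Of 16 serine, one-carbon, proline and transamination enzymes 14 have a row, 12 were called lower with spike-in scaling (85.7%), and 2 were called lower relative to the median gene (14.3%). These were *BCAT1*, which transaminates branched-chain amino acids, with 17584 reads in the control, 10047 in column 1 and 10000 in column 2 (relative value −0.32, adjusted p = 0.0404, limma voom), and the mitochondrial folate enzyme *MTHFD1L* (−0.30, adjusted p = 0.0416, limma voom). The median of this list was −0.11 relative to the median gene. *PSPH*, the last enzyme of the serine pathway that *PHGDH* and *PSAT1* open, was at −0.30 (adjusted p = 0.0524, limma voom), and is named after its value was seen.

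Of 12 amino acid transporter genes 9 have a row, 7 were called lower with spike-in scaling (77.8%) and 1 relative to the median gene (11.1%). *SLC7A11*, the cystine importer, had 10185 reads in the control, 5209 in column 1 and 5122 in column 2, a relative value of −0.49 (adjusted p = 0.0401, limma voom). At the other end, the glutamine transporter *SLC38A2* had 11169, 9086 and 9562 reads and a relative value of 0.23 (adjusted p = 0.0658). Of 20 cytosolic aminoacyl-tRNA synthetase genes, which charge tRNAs with amino acids, 17 have a row. Of these, 14 were called lower with spike-in scaling (82.4%), and relative to the median gene 2 were called lower (11.8%) and 1 higher. The lower genes were *FARSB* (−0.42, adjusted p = 0.0401) and *CARS1* (−0.30, adjusted p = 0.0459), and the higher one was *HARS1* (0.33, adjusted p = 0.0479, limma voom for each). With spike-in scaling the log2 fold change of *HARS1* was −0.09 (adjusted p = 0.572). The table lists *CARS1* and *HARS1* under the older names *CARS* and *HARS*.

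Growth control genes downstream of *DDIT4* and *SESN2* had the lowest median of the lists. Of 21 TSC, GATOR and mTORC1 genes 19 have a row, 15 were called lower with spike-in scaling (78.9%, against 64.7% of all genes), and 4 were called lower relative to the median gene (21.1%, against 5.25%), with a list median of −0.32. The values of the list ran from −0.50 to 0.21, and 2 of its genes had a mean under 100. No test of the list was made, and it was not set against genes of like length. The 4 were *RPTOR* (−0.47), the mTORC1 scaffold, *NPRL3* (−0.46) and *WDR59* (−0.43), subunits of the GATOR complexes, and the kinase *MTOR* (−0.40), each with an adjusted p of 0.0401 (limma voom). *MTOR* had 10602 reads in the control, 5606 in column 1 and 5774 in column 2. *DDIT4* and *SESN2* themselves stood at −0.08 and 0.02 on the same scale.

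Of 17 other stress response outputs 12 have a row, 7 were called lower with spike-in scaling, and 1, the autophagy receptor *SQSTM1*, was called higher relative to the median gene (0.31, adjusted p = 0.0499), at −0.10 with spike-in scaling (adjusted p = 0.541, limma voom). The other ends of this list were *PCK2* at −0.14 and *MAP1LC3B* at 0.32. With spike-in scaling 64.7% of all genes were called lower, a larger share than in each list of this paragraph. Relative to the median gene, 5.25% of all genes were called lower and 3.22% higher. Of 22 genes of the XBP1 and ATF6 arms of the unfolded protein response, 18 have a row, 9 were called lower with spike-in scaling and 0 relative to the median gene, from *SDF2L1* at −0.30 to *DNAJB9* at 0.28. Of 6 paralogs of the stress response genes 4 have a row, 1 was called lower with spike-in scaling and 0 relative to the median gene. The paralog *SESN1*, with 1571, 980 and 950 reads, was at −0.21 (adjusted p = 0.0895), and *CHAC2*, with 101, 95 and 105 reads, at 0.48 (adjusted p = 0.128, limma voom).

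Over the 124 different genes of the 11 lists, 87 were called lower with spike-in scaling (70.2%, against 64.7% of all genes) and 0 higher, and the median log2 fold change was −0.44. Relative to the median gene 11 were called lower (8.87%, against 5.25%) and 2 higher (1.61%, against 3.22%), and the median was −0.02, close to that of all genes tested. Adjusted p-values of these called genes ran from 0.0401 to 0.0499 (limma voom), so none would be called at a threshold of 0.01. List calls under the other alternative settings are not given here.

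**Figure D3:**
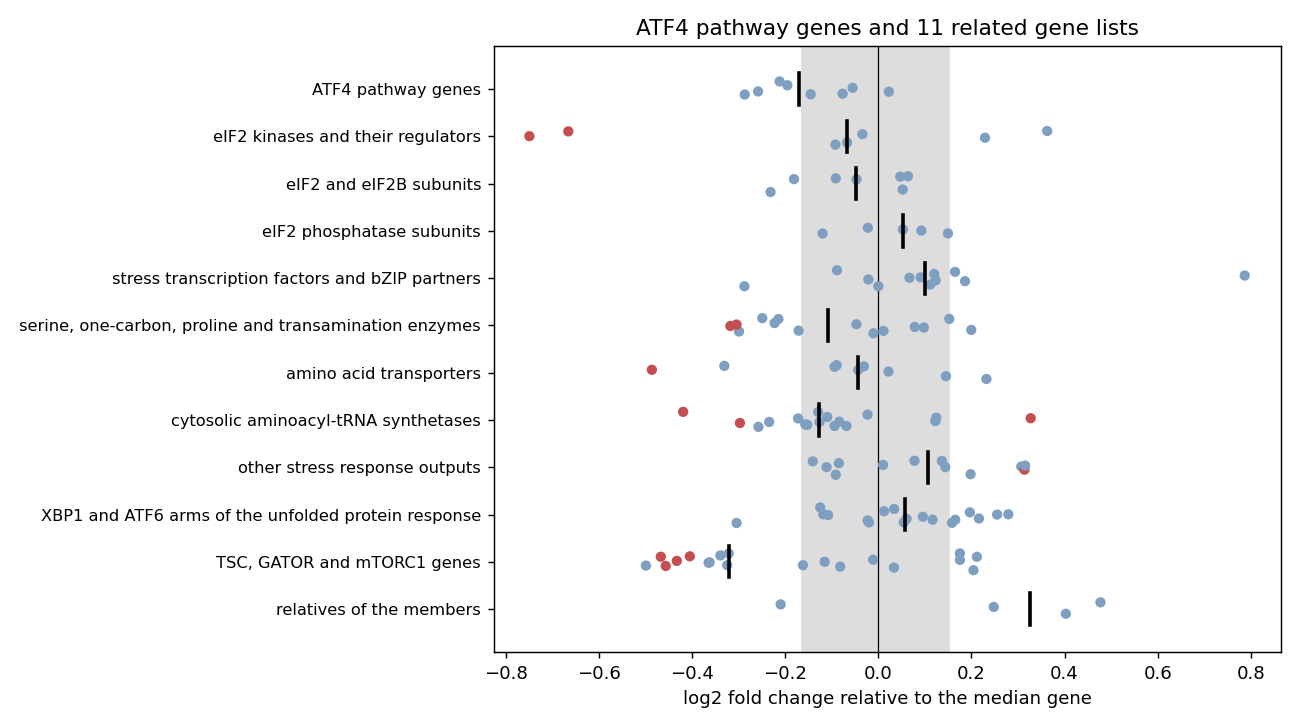
Log2 fold change relative to the median gene (horizontal axis) for the ATF4 pathway genes and 11 related lists, with 1 point per gene. Red marks genes called at an adjusted p under 0.05, and a black bar marks the median of each list. The grey band covers the quartiles of all genes with a mean of at least 100. The 8 ATF4 pathway genes run from −0.29 to 0.02 with no red point, and the TSC, GATOR and mTORC1 genes have 4 red points and a median of −0.32.

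The control enters as a single column, so an error of that column would move all 8 genes and all lists in common with it. The dIWS1 columns differed by a shift shared by most genes, 0.11 at the median on the log2 scale. The standard errors of the 8 genes were 0.14 to 0.15 with spike-in scaling and 0.05 to 0.10 relative to the median gene. Spike-in p-values rest on a spread pooled over all genes, with 10135 degrees of freedom, and do not measure a gene's own spread. The shared shift is a single draw but enters that spread for every gene. Relative to the median gene the degrees of freedom were 4.53.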

How the data were processed

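The labels list TT-seq libraries of 2 control and 2 dIWS1 samples. The deposited table used here holds 1 control and 2 dIWS1 columns, recovered as described below. The authors aligned reads to GRCh38 with STAR 2.6.0 (unique alignments), excluded overlapping RefSeq genes, kept genes over a density threshold, counted read pairs per gene with respect to strand, and ran DESeq2 with spike-in size factors. The deposited mean normalized count is a signal value per gene over all library columns. The table also holds the authors' log2 fold change, its standard error and test statistic, and the p-values before and after adjustment. These comparison columns are not reported here. The deposited log2 fold change was used only to orient the columns and to choose among splits for high means.

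Because a mean adds up scaled whole reads, the reads can be read back from it. For 10135 of 10136 genes with a mean above 0 a single split into reads was found, and of 600 shifted means 1 could be split. The recovered size factors were 1.01 for the control and 0.993 and 0.919 for dIWS1 columns 1 and 2. The plan had foreseen these reads, and limma 3.58.1 (voom, R 4.3.3) was fitted to 1 control and 2 dIWS1 columns, with Benjamini-Hochberg adjustment over all genes and a threshold of 0.05. A further fit rescaled the dIWS1 columns to the median gene. With 1 control column, p-values take the spread from the dIWS1 columns, pooled over genes. The degrees of freedom were 10135 with spike-in scaling and 4.53 relative to the median gene. The fit was also run on simulated counts, whose outcome is not given here and is not used to back the p-values. Ratios of single columns used a pseudocount of 0.5 reads.

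The members and lists were chosen with earlier results of these data known. Named genes are all members with reads and, per list, up to 4 genes called relative to the median gene, or the lowest and highest with a mean of at least 100 where fewer than 2 were called. The eIF2 kinase genes and *PSPH* are named outside this rule. List genes were matched by symbol or RefSeq synonym. Alternatives were the control entered 2 times, scaling by total reads, limma-trend with pseudocounts of 0.5 and 5, a minimum mean of 100, thresholds of 0.01 and 0.1, and leaving out each dIWS1 column. Values over the RefSeq span were added after seeing the data. Annotation was RefSeq GRCh38.p14 and GENCODE release 44. Software was Python 3.11.15, numpy 2.4.6, pandas 2.3.3, scipy 1.17.1, numba 0.67.0 and matplotlib 3.10.9.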

Additional observations from a re-analysis of the deposited data

How the results depend on the processing

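No paired analysis was possible because the recovered columns carry no replicate numbers and the control is a single column. With spike-in scaling, all 8 genes were called lower with the control entered 2 times, with limma-trend at either pseudocount, with genes of a mean of at least 100 and at an adjusted p under 0.1, and 7 at an adjusted p under 0.01 (without *SESN2*). Scaled by total reads, 1 gene was called lower (*TRIB3*), the median moved to −0.14 by construction, and *SESN2* changed sign to 0.051. Leaving out one dIWS1 column gave medians from −0.64 to −0.53. Relative to the median gene, 0 genes called became 5 with the control entered 2 times (*ATF4*, *ASNS*, *TRIB3*, *CHAC1* and *PSAT1*), which counts the same column as a pair of samples, 3 with genes of a mean of at least 100, and 3 at an adjusted p under 0.1 (*ATF4*, *TRIB3* and *PSAT1* in both), and 1 with total reads (*TRIB3*), where the median was −0.14. The cause of the change under the minimum mean was not tested. The share of all genes called under each alternative is not given here. A change in these counts of the 8 genes therefore cannot be told apart from a change over all genes. Leaving out one dIWS1 column gave relative medians of −0.17 and −0.17, and the relative value of *SESN2* was −0.0090 without column 2 and 0.054 without column 1. Adjusted p-values over the alternatives ran from 0.00386 to 0.136 for *ATF4* and from 0.518 to 0.84 for *SESN2* relative to the median gene. For the pathway lists, 87 lower and 0 higher calls became 11 and 2 when recentred on the median gene. Depth limits *CHAC1* most, with 385 control reads.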
